A study of Danio rerio with 18 samples.

Results

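Nuclear-encoded asparagine tRNAs (tRNA-Asn) were examined in zebrafish eggs and in embryos up to the close of gastrulation. Every nuclear entry of the abundance table whose name carries tRNA-Asn was taken, which gave 116 of 2600 entries in all and of 2578 nuclear ones. Of these, 112 were single transcripts resolved from each other by sequence, and 4 were unresolved groups in which reads could not be split between near-identical transcripts. The 4 groups and 112 transcripts together named 287 tRNA transcripts, all with the anticodon GUU, and the largest group alone named 167. Asn-GUU was therefore the only Asn family among the 47 nuclear anticodon families.

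The study followed tRNA pools through the maternal-to-zygotic transition, when the embryo passes from maternal stores to its own transcription. Abundance was measured by mim-tRNAseq, in which a processive reverse transcriptase copies whole tRNAs through modified bases, in wild-type TLAB strain eggs and embryos, with 2 libraries per stage. Eggs stood at 0 hours post-fertilization (hpf), the gastrula stages shield and bud at 6 and 10 hpf, and the blastula stages 256-cell, 1000-cell and sphere between them at 2.5, 3 and 4 hpf. No genetic or chemical treatment was compared, and each library came from a pool of 50 eggs or whole embryos, so tissues were not separated. A separate set of 6 libraries, of which 3 were from sphere and 3 from bud, gave the charging of each tRNA family.

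Asparagine tRNA is charged by asparaginyl-tRNA synthetase and decodes both asparagine codons, AAC and AAU, through a single anticodon, because the G that opens the anticodon can pair with C or U in the last place of the codon. In animals this G is exchanged for queuosine in the tRNAs for asparagine, aspartate, histidine and tyrosine. Transcripts that share an anticodon but differ elsewhere are called isodecoders, and vertebrate genomes hold many copies and near-copies of their genes. Early embryos inherit a tRNA pool from the egg, and RNA polymerase III later makes tRNA from the embryonic genome.

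Abundance libraries held between 977425 and 10121680 counts, of which 791432 to 8525792 were nuclear, and the first egg library was the shallowest. Between 21149 and 141812 counts of a library fell on Asn entries. Each count is a read of a tRNA, and tRNAs are close to each other in length, so levels were not divided by length. Levels are given as a percent of the nuclear tRNA counts of a library, and they say nothing of the amount of tRNA per embryo. Tests were run on counts scaled by the size factors of DESeq2, and such fold changes are on that scale. Because the libraries are bulk, fewer cells that use a transcript and less of it per cell cannot be told apart.

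As a family, Asn-GUU tRNAs took between 1.66% and 2.75% of the nuclear tRNA counts of a library. The share was 2.67% and 2.12% in the egg libraries (2.39% ± 0.393, SD, n = 2), 1.66% and 2.14% at 256-cell (1.90% ± 0.340, n = 2) and 2.09% and 1.76% at 1000-cell (1.93% ± 0.236, n = 2). It was 2.14% and 2.08% at sphere (2.11% ± 0.0420, n = 2), 2.38% and 2.04% at shield (2.21% ± 0.244, n = 2) and 2.67% and 2.75% at bud (2.71% ± 0.0566, n = 2). Both bud libraries stood above both libraries of sphere, shield, 1000-cell and 256-cell, while the first egg library reached the bud level and the second did not. By its stage mean the family ranked between 16th at bud and 23rd at sphere among the 47 families. The Wilson 95% interval of the first egg library ran from 2.64% to 2.71% and that of the second from 2.10% to 2.14%, so the gap between these replicates was wider than counting error.

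**Figure D1:**
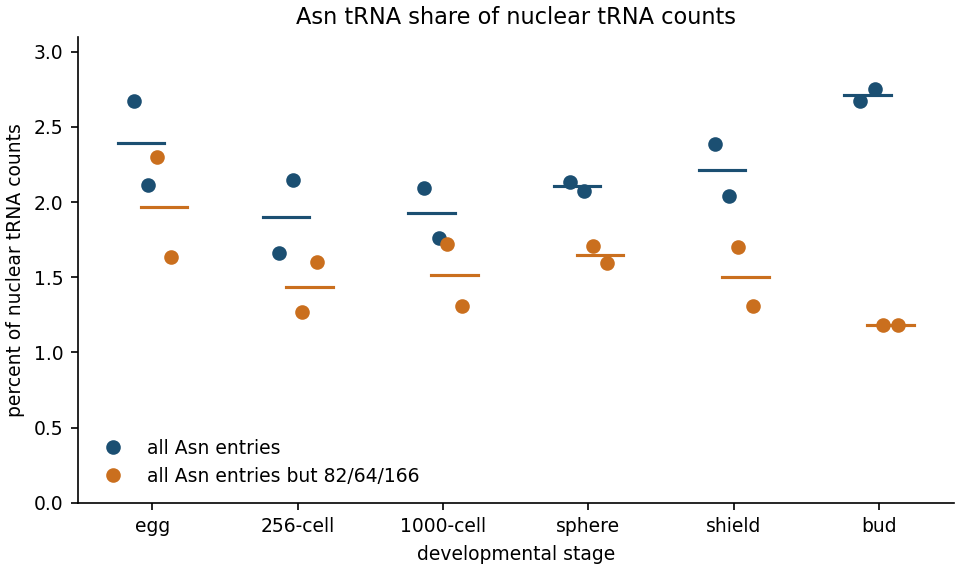
Asn tRNA share of nuclear tRNA counts (percent, vertical axis) by stage. Points are single libraries and bars the mean of 2 libraries, for all 116 Asn entries and for the same sum without the group tRNA-Asn-GUU-82/64/166. The full share rose from 2.11% at sphere to 2.71% at bud, and the share without that group went from 1.65% to 1.18%.

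The family sums were compared between stages with the DESeq2 Wald test over all 12 libraries, each later stage against egg and bud against sphere. Asn-GUU did not pass the test against egg at any stage. The log2 change was -0.31 ± 0.17 (SE) at 256-cell (adjusted p 0.456), -0.31 ± 0.17 at 1000-cell (0.419), -0.19 ± 0.17 at sphere (0.638), -0.11 ± 0.17 at shield (0.614) and 0.25 ± 0.17 at bud (0.232). The share of the 47 families called in these contrasts was 2.13%, 0%, 4.26%, 17.0% and 36.2% in the same order. Without the first egg library the bud value became 0.44 and passed (DESeq2 adjusted p 0.0489), and the shield value turned to 0.07. Bud against sphere passed, with a log2 change of 0.45 ± 0.17 (95% interval 0.12 to 0.77, 1.36-fold, adjusted p 0.0278), where 29.8% of families were called. That call was lost with edgeR (0.41, adjusted p 0.0605), with scaling to total nuclear counts (0.36, adjusted p 0.0784) and when any of the 4 sphere and bud libraries was left out. Over all alternatives the adjusted p ran from 8.12e-05 to 0.150 for this contrast and from 1.61e-05 to 0.708 for bud against egg. These ranges include alternatives in which the change was below 0. The DESeq2 value of 1.61e-05 belongs to a fall, that of the resolved transcripts summed alone. The DESeq2 value of 0.150 belongs to a change below 0, that of the sum without the group tRNA-Asn-GUU-82/64/166.

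Over the 12 libraries the family share had a Pearson's r of 0.482 with hpf (permutation p 0.114, adjusted 0.228), while Spearman's rho was 0.269 (permutation p 0.406, adjusted 0.406). Without the bud libraries, which lie farthest from the median time, r was -0.170. From egg to sphere alone it was -0.495 over 8 libraries. No relation with time was thus detectable over the whole course.

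Within the family, the composition of the counts differed between egg and bud by more than the replicates did. A pair of unresolved entries made up most of the family, namely tRNA-Asn-GUU-200/148/235, which stands for transcripts from 15 gene copies, and tRNA-Asn-GUU-82/64/166, from 3 gene copies. Together they held between 68.7% and 87.1% of the Asn counts of a library. tRNA-Asn-GUU-200/148/235 took 57.4% and 48.6% of Asn counts in egg (53.0% ± 6.21, SD, n = 2), 51.7% and 50.7% at sphere (51.2% ± 0.706, n = 2), 40.5% and 41.8% at shield (41.1% ± 0.897, n = 2) and 28.2% and 30.1% at bud (29.1% ± 1.33, n = 2). tRNA-Asn-GUU-82/64/166 took 14.0% and 22.7% in egg (18.4% ± 6.20, n = 2), 19.9% and 23.3% at sphere (21.6% ± 2.37, n = 2), 28.8% and 35.7% at shield (32.2% ± 4.91, n = 2) and 55.7% and 57.0% at bud (56.3% ± 0.948, n = 2). The second entry was thus the lower of the pair in all 10 libraries up to shield and the higher in both bud libraries. Reads within an entry could not be split, so it is not known which of its 3 transcripts took part.

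The ratio of the first entry to the second, which does not depend on how libraries are scaled, was 4.11 and 2.14 in egg, 2.11 and 1.90 at 256-cell, 2.85 and 1.92 at 1000-cell and 2.59 and 2.18 at sphere. It was 1.41 and 1.17 at shield and 0.506 and 0.527 at bud. All 4 gastrula libraries, that is shield and bud, lay below all 8 earlier ones, and both bud libraries lay below both shield libraries. The 112 resolved transcripts held the rest, together with the other groups. Their part of the family was 27.1% and 27.2% in egg, between 23.9% and 28.9% from 256-cell to sphere, 22.4% and 19.4% at shield, and 11.9% and 11.7% at bud.

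**Figure D2:**
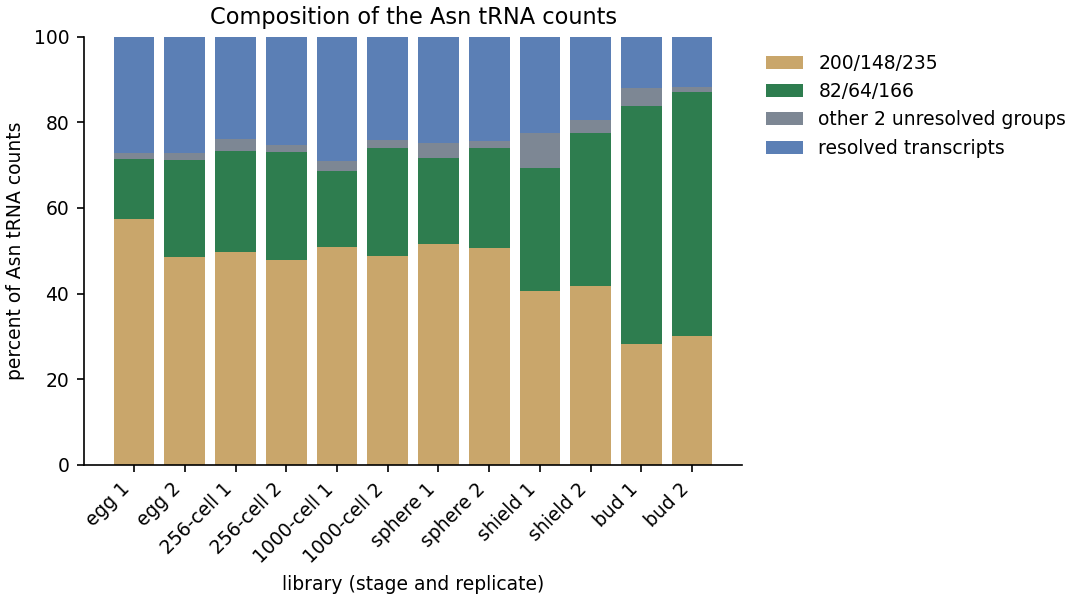
Composition of the Asn tRNA counts in each of the 12 libraries (percent of Asn counts, stacked to 100). The entry tRNA-Asn-GUU-82/64/166 grew from 14.0% and 22.7% in the egg libraries to 55.7% and 57.0% at bud, and tRNA-Asn-GUU-200/148/235 shrank from 57.4% and 48.6% to 28.2% and 30.1%.

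As a share of all nuclear tRNA counts, tRNA-Asn-GUU-82/64/166 stood at 0.373% and 0.481% in egg, 0.392% and 0.541% at 256-cell, 0.374% and 0.447% at 1000-cell and 0.426% and 0.483% at sphere. It was 0.686% and 0.728% at shield and 1.49% and 1.57% at bud. Both gastrula stages lay above every earlier library. Its gain of 1.10 percentage points from egg to bud was the 3rd largest of the 2578 nuclear entries. By log2 change from egg to bud, in the fit given next, it ranked 45th of the 661 detected entries. The change of groups was tested in a DESeq2 fit of all nuclear entries, which was added after the data had been seen because the first fit held resolved transcripts only. In it tRNA-Asn-GUU-82/64/166 rose 4.63-fold from egg to bud (log2 2.21 ± 0.28, SE, adjusted p 5.95e-14) and 4.41-fold from sphere to bud (2.14 ± 0.28, adjusted p 2.42e-13), in contrasts where 26.6% and 20.8% of detected entries were called. Leaving out any library kept the egg to bud change between 2.01 and 2.46. At shield the log2 change from egg was 0.66 ± 0.28 and did not pass (adjusted p 0.114), although it passed with scaling to total counts (0.73, adjusted p 0.0379, range over alternatives 0.00732 to 0.565).

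tRNA-Asn-GUU-200/148/235 stood at 1.53% and 1.03% of nuclear counts in egg, between 0.827% and 1.10% in the libraries from 256-cell to sphere, 0.966% and 0.852% at shield and 0.753% and 0.827% at bud. Its loss of 0.491 percentage points from egg to bud was the 9th largest among the nuclear entries, and both bud libraries lay below both egg libraries on this scale. On the DESeq2 scale the log2 change from egg to bud was -0.31 ± 0.25 (adjusted p 0.486) and the libraries overlapped, so no change passed the test. With scaling to total counts it was -0.70 (adjusted p 0.0468, the lowest over its alternatives, which reached 0.963). Between sphere and bud its log2 change was -0.06 ± 0.25 (adjusted p 0.924), and leaving out the first sphere or the first bud library turned it to 0.01 or 0.05.

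Set out in percentage points of the nuclear pool, the mean family share grew by 0.605 from sphere to bud. tRNA-Asn-GUU-82/64/166 contributed a gain of 1.07 to this. tRNA-Asn-GUU-200/148/235 changed by -0.288, the resolved transcripts by -0.197 and the other groups by 0.0181. When tRNA-Asn-GUU-82/64/166 was left out of the sum, the family had a log2 change of -0.64 from egg to bud (DESeq2 adjusted p 0.00558) and of -0.37 from sphere to bud (adjusted p 0.150). That fit was not planned and drops the entry that gained most. A value below that of the whole family was therefore given in advance. The sum of resolved transcripts alone fell by 1.00 from egg to bud (adjusted p 1.61e-05) and by 0.64 from sphere to bud (adjusted p 0.00915). From sphere to bud the family share thus gained less than tRNA-Asn-GUU-82/64/166 alone, which is 1 of its 116 entries.

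The smaller groups were tRNA-Asn-GUU-252/272, from 2 gene copies, and the group led by tRNA-Asn-GUU-133, whose copy number cell held a spreadsheet error and was not used. tRNA-Asn-GUU-252/272 took 0.0193% and 0.0157% of nuclear counts in egg, 0.0303% and 0.0200% at 256-cell, 0.0267% and 0.0138% at 1000-cell, 0.0600% and 0.0203% at sphere, 0.181% and 0.0513% at shield and 0.103% and 0.0242% at bud. It rose at shield (log2 2.65 ± 0.72, DESeq2 adjusted p 0.00582) and at bud (2.24 ± 0.72, adjusted p 0.0177) against egg, where 15.6% and 26.6% of detected entries were called. The first library was the higher of the pair at all 6 stages, by 1.24-fold in egg and 4.26-fold at bud. Both rises lost the call with edgeR (adjusted p 0.0905 at shield and 0.0911 at bud). The rise at shield also lost it without the second egg library (log2 2.54) or the first shield library (log2 1.54). The rise at bud also lost it with scaling to total counts (DESeq2 adjusted p 0.0550). So it did without the first or second egg library (log2 2.35 and 2.13) and without the first bud library (log2 0.89). Over all alternatives the adjusted p ran from 1.37e-05 to 0.399 at shield and from 0.000526 to 0.583 at bud. The tRNA-Asn-GUU-133 group held between 0.00895% and 0.0236% of nuclear counts, with a log2 change of -0.59 ± 0.28 from egg to bud (adjusted p 0.143). With scaling to total counts that change passed (-0.98, DESeq2 adjusted p 0.0128, the lowest over its alternatives, which reached 0.631).

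**Figure D3:**
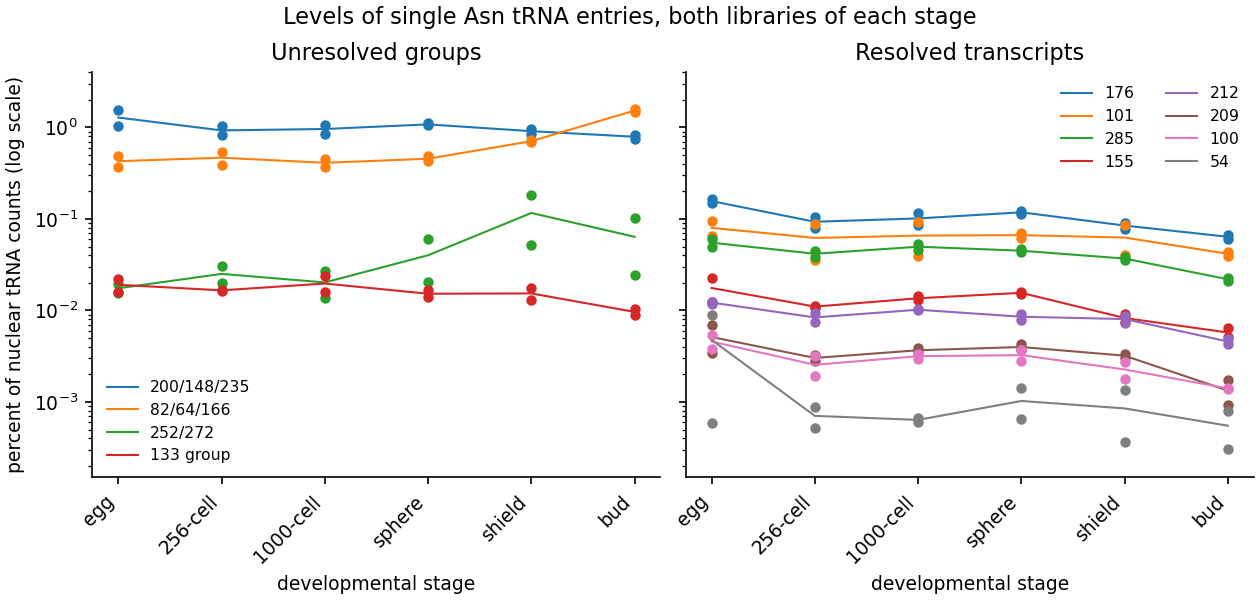
Levels of the 4 unresolved Asn groups (left) and of 8 resolved transcripts (right) by stage, as percent of nuclear tRNA counts on a log axis. The 8 are the 2 most abundant resolved transcripts and those called at bud against egg. Most of them were thus drawn because they fell. Points are single libraries and lines join the means of 2 libraries. tRNA-Asn-GUU-82/64/166 crosses tRNA-Asn-GUU-200/148/235 between shield and bud, and the libraries of tRNA-Asn-GUU-252/272 stand apart from sphere on.

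Few of the resolved isodecoders reached the level used here for detection, although between 70 and 92 of the 112 had counts in a library. Detection here means 0.005% of nuclear counts or more in at least 1 library. By this rule 21 of the 112 resolved Asn transcripts, 18.8%, were detected, against 586 of the 2393 other resolved nuclear transcripts, 24.5%. All 4 groups were detected. Of the 21, 14 reached the threshold in all 12 libraries and 3 in a single library. The other 91 transcripts together held between 0.793% and 2.07% of the Asn counts of a library. Among the 112, 29 had 3 counts or fewer in every library and 14 of these had 0 counts throughout. In the shallowest library 3 counts correspond to 0.000379% of nuclear counts and in the deepest to 3.52e-05%, so lower levels would not be detectable.

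Near the threshold, tRNA-Asn-GUU-39 was just inside, with a highest value of 0.00534% in the first shield library. tRNA-Asn-GUU-275 was just outside, with 0.00450% in the second 1000-cell library. Among the resolved transcripts, the number of gene copies did not order them by level. The unresolved groups, which hold most of the Asn counts, were left out of this comparison. Gene copies are those the authors counted in the reference, and 115 Asn entries with a number had 220 in all. The detected resolved transcripts had 50 copies and 13 of them were single-copy genes, while the undetected ones had 150 copies and 67 were single-copy. Over the 112 transcripts the Spearman's rho between copies and mean percent was 0.173, and over the 21 detected ones 0.0871, as a description across transcripts that share the same 12 libraries. The transcript with the most copies, tRNA-Asn-GUU-261 with 19, reached no more than 0.000247% of nuclear counts in any library. tRNA-Asn-GUU-176, the most abundant resolved transcript, had 3 copies.

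The 10 most abundant resolved transcripts were tRNA-Asn-GUU-176, tRNA-Asn-GUU-101, tRNA-Asn-GUU-222, tRNA-Asn-GUU-285, tRNA-Asn-GUU-65, tRNA-Asn-GUU-45, tRNA-Asn-GUU-164, tRNA-Asn-GUU-267, tRNA-Asn-GUU-155 and tRNA-Asn-GUU-99. They held 75.3% to 83.2% of the resolved Asn counts. Their mean levels over the 12 libraries ran from 0.103% for tRNA-Asn-GUU-176 to 0.0114% for tRNA-Asn-GUU-99. The resolved part of the family was spread more evenly than the groups, since between 14 and 19 transcripts were needed to reach 90% of its counts. Replicates differed in some of these. tRNA-Asn-GUU-164 was at 0.0149% and 0.0516% in the 256-cell libraries, a 3.45-fold gap, at 0.0502% and 0.0197% at 1000-cell and at 0.0373% and 0.0150% at shield. tRNA-Asn-GUU-101 stood apart in the same direction at these stages, by 2.46-fold, 2.31-fold and 2.12-fold.

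Before gastrulation no resolved Asn transcript passed the DESeq2 test against egg in the fit of all resolved transcripts. At 256-cell 0 of 21 were called where 0.990% of all detected transcripts were. At 1000-cell 0 were called (background 0.496%), and at sphere 0 (background 0.824%). edgeR also called 0 in each of the 3 contrasts. These counts of 0 depended on the fit, since other alternatives called up to 3 transcripts at 256-cell and up to 2 at 1000-cell, both when only detected transcripts were fitted, and all of them lower than in egg. Without the second egg library 1 was called at each of the 3 stages. Without the second 256-cell library 1 was called at 256-cell and at 1000-cell, and without either sphere library 1 at 1000-cell. The median log2 change of the 21 was -0.43, -0.36 and -0.36 at these stages, beside medians of all detected transcripts of -0.0098, -0.033 and -0.022. The 21 include tRNA-Asn-GUU-54, tRNA-Asn-GUU-100 and tRNA-Asn-GUU-209, which reached the detection threshold only in a single egg library. Their inclusion favours values below 0 against egg, and medians without them were not computed.

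At shield 4 of the 21 fell against egg and 0 rose (19.0% lower, background 7.41% lower and 15.5% in either direction). They were tRNA-Asn-GUU-45 (log2 -1.22 ± 0.34, SE, adjusted p 0.00628), tRNA-Asn-GUU-155 (-1.11 ± 0.31, adjusted p 0.00800), tRNA-Asn-GUU-176 (-0.94 ± 0.24, adjusted p 0.00200) and tRNA-Asn-GUU-285 (-0.62 ± 0.20, adjusted p 0.0255). The median of the 21 was -0.37, against -0.053 over all detected transcripts. It too includes the transcripts detected only in a single egg library, none of which is among the 4 called. edgeR called 1 of them, and without the first egg library 0 were called. Each of the 4 calls was lost under some alternative, whereas their direction was the same in all that were run.

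At bud 7 of the 21 fell against egg and 0 rose (33.3% lower, background 11.2% lower and 27.2% in either direction). Of the 7, tRNA-Asn-GUU-54, tRNA-Asn-GUU-100 and tRNA-Asn-GUU-209 reached the detection threshold only in a single egg library. Their detection thus rested on the stage from which they fell, and the values given here over the 21 include them. Both bud libraries lay below both egg libraries for 14 of the 21, where 31.0% of all detected transcripts did so. The median log2 change of the 21 was -0.64, against -0.0019 over all. With scaling to total counts the median of all detected transcripts shifted to -0.37 and that of the Asn transcripts to -1.02, so that the distance between them was -0.64 on the first scale and -0.65 on the second. The number called ranged from 1 without the first bud library to 7 when single libraries were left out, and it was 4 without the second egg library.

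The called transcripts included abundant and rare ones. Among the 10 most abundant resolved transcripts, tRNA-Asn-GUU-176, tRNA-Asn-GUU-285 and tRNA-Asn-GUU-155 were called at bud against egg, and the others were not. Some alternatives added calls, all lower at bud. tRNA-Asn-GUU-222, tRNA-Asn-GUU-45 and tRNA-Asn-GUU-267 passed with scaling to total counts (DESeq2 adjusted p 0.00269, 0.00834 and 0.00633) and when only detected transcripts were fitted. tRNA-Asn-GUU-164 passed when only the compared libraries were fitted (DESeq2 adjusted p 0.0364). tRNA-Asn-GUU-176 stood at 0.163% and 0.150% of nuclear counts in egg, between 0.0801% and 0.122% from 256-cell to sphere, 0.0911% and 0.0782% at shield and 0.0608% and 0.0668% at bud. In percent of nuclear counts its egg libraries were the highest of the 12 and its bud libraries the lowest. On the DESeq2 scale the bud libraries (2060.5 and 2318.4 normalized counts) overlapped with earlier ones, among them the second shield library (2041.7) and the first 256-cell library (2083.3). On that scale the change from egg to bud was 1.88-fold down (log2 -0.91 ± 0.24, DESeq2 adjusted p 0.00164). The call of tRNA-Asn-GUU-176 was lost without the first bud library (log2 -0.81). tRNA-Asn-GUU-285 was at 0.0606% and 0.0495% in egg, at 0.0431% and 0.0469% at sphere and at 0.0210% and 0.0229% at bud. It fell 1.91-fold (log2 -0.94 ± 0.20, adjusted p 7.75e-05), and it kept this call in every alternative that was run, with adjusted p values up to 0.0430.

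tRNA-Asn-GUU-155 stood at 0.0227% and 0.0125% in egg, 0.0151% and 0.0161% at sphere, 0.00749% and 0.00906% at shield and 0.00511% and 0.00639% at bud (egg to bud log2 -1.20 ± 0.32, DESeq2 adjusted p 0.00214). All 4 of its gastrula libraries lay below the 8 earlier ones. The call at bud was lost without the first egg library (log2 -0.77) and without the first bud library (log2 -1.02). tRNA-Asn-GUU-212 was at 0.0119% and 0.0125% in egg and at 0.00431% and 0.00486% at bud (log2 -1.03 ± 0.27, adjusted p 0.00165). Its call was lost without the second egg library (log2 -0.93) and without the first bud library (log2 -0.92). The remaining called transcripts were of low abundance. tRNA-Asn-GUU-209 was at 0.00341% and 0.00686% in egg, between 0.00284% and 0.00427% in the libraries from 256-cell to shield and at 0.000925% and 0.00174% at bud (log2 -1.60 ± 0.45, adjusted p 0.00457). Its call was lost without the second egg library (log2 -0.90) and without the first bud library (log2 -1.20).

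tRNA-Asn-GUU-100 had 30 and 109 counts in egg and 45 and 59 at bud, which is 0.00379% and 0.00538% against 0.00144% and 0.00139% (log2 -1.35 ± 0.42, DESeq2 adjusted p 0.0139). Its call too was lost without the second egg library (log2 -0.99), and without either bud library. tRNA-Asn-GUU-54 was called at bud (log2 -2.69 ± 1.00, adjusted p 0.0489) from 71 and 12 egg counts and 25 and 13 bud counts. Its egg libraries were 15.1-fold apart in percent, the bud libraries overlapped with them, and without the first egg library the change was 0.22. Its call rested on that library.

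**Figure D4:**
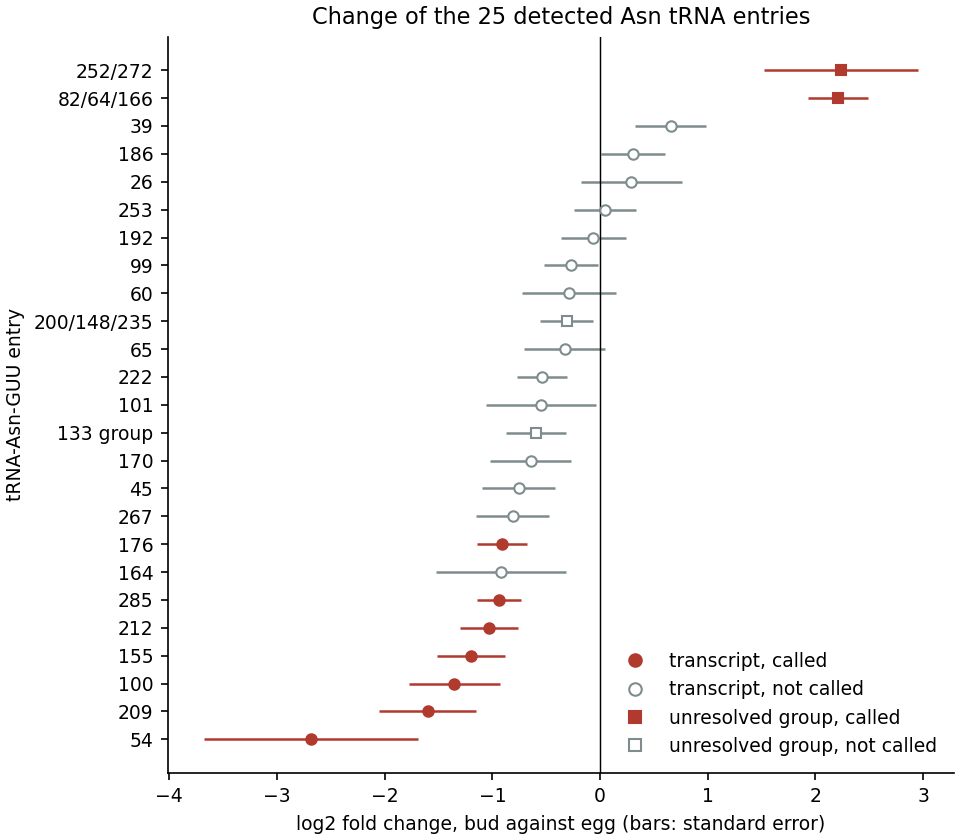
Log2 fold change from egg to bud (DESeq2, bars are SE) for the 25 detected Asn entries, 21 transcripts (circles) and 4 unresolved groups (squares). Filled symbols passed an adjusted p of 0.05. The called transcripts all lie below 0, from -0.91 to -2.69, and the called groups lie at 2.21 and 2.24.

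Between sphere and bud 2 of 20 tested Asn transcripts fell and 0 rose (background 6.32% lower and 20.1% in either direction). They were tRNA-Asn-GUU-155 (log2 -1.04 ± 0.31, DESeq2 adjusted p 0.00883) and tRNA-Asn-GUU-285 (-0.64 ± 0.20, adjusted p 0.0115), and edgeR called neither. tRNA-Asn-GUU-54 had no adjusted p in this contrast. The Asn median was -0.28, against -0.036 over all detected transcripts. With scaling to total counts 7 passed, all lower. On that scale the median of all detected transcripts was itself -0.43, and that of the Asn transcripts -0.68. The share of all detected transcripts that passed on that scale is not given here, so the 7 have no background.

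Not every resolved transcript was lower at bud than in egg. Of the 21, 4 had a log2 change above 0 on the DESeq2 scale and none of the 4 passed the test. tRNA-Asn-GUU-39 had the highest value, 0.66 ± 0.33 (adjusted p 0.179), with 0.00291% and 0.00276% in egg, 0.00534% and 0.00513% at shield and 0.00319% and 0.00364% at bud. The others were tRNA-Asn-GUU-186 (0.30), tRNA-Asn-GUU-26 (0.29) and tRNA-Asn-GUU-253 (0.05). With scaling to total counts 20 of the 21 were below 0, on a scale where the median of all detected transcripts was -0.37.

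Of the families that carry queuosine or otherwise read a codon pair with an opening G, 6 were set beside Asn-GUU, and Gly-GCC was left out. None of Asp-GUC, His-GUG, Tyr-GUA, Phe-GAA, Cys-GCA and Ser-GCU passed the DESeq2 family test in any of the 6 contrasts. From sphere to bud, where Asn-GUU had 0.45 ± 0.17, the log2 change was 0.30 ± 0.15 for Asp-GUC (adjusted p 0.112), -0.07 ± 0.13 for His-GUG (0.662) and 0.23 ± 0.14 for Tyr-GUA (0.224). The difference between Asn-GUU and these families was not tested. Over the 12 libraries the log2 share of Asn-GUU followed that of Asp-GUC most closely of the 46 other families (Pearson's r 0.832), then Ile-AAU (0.773) and Lys-CUU (0.737). These values describe 12 libraries that share stages and depth, and no test was attached to them. His-GUG and Tyr-GUA had negative values, -0.472 and -0.514.

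Charging, the fraction of a tRNA whose 3' end is protected by its amino acid, was deposited per family and not per isodecoder. It therefore cannot be split between tRNA-Asn-GUU-82/64/166 and the other entries. Asn-GUU was 82.2%, 83.3% and 82.9% charged in the sphere libraries (82.8% ± 0.530, SD, n = 3) and 78.7%, 86.8% and 82.9% charged in the bud libraries (82.8% ± 4.08, n = 3). The means differed by -0.0022 percentage points with an SE of 2.38 (exact permutation p 1, two-sided, where 3 against 3 libraries cannot go below 0.1). The bud libraries straddled all sphere libraries. The order of the bud libraries was not particular to Asn. The second was the highest of its stage in all 46 families of the charging table, and the first was the lowest in 31. The size of the Asn spread differed from that of most families. Its SD at bud was above the median SD over families of 2.37, and its SD at sphere was below the median of 1.28.

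Asn-GUU was among the less charged families at both stages, 5th from the lowest of 46 at sphere and 4th at bud, where the medians over families were 90.1% and 89.3%. Its neighbours in that order did not stand apart from it beyond their spread. His-GUG was 82.2% ± 1.85 charged at sphere (n = 3) and 82.7% ± 3.07 at bud, and Phe-GAA was 82.3% ± 2.14 and 80.8% ± 3.88. Other families that open with G had higher means, with Asp-GUC at 87.7% ± 2.46 and 86.7% ± 2.72, and Tyr-GUA at 90.9% ± 1.25 and 90.5% ± 2.30. No read counts accompany the charged fractions, so their depth is unknown.

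**Figure D5:**
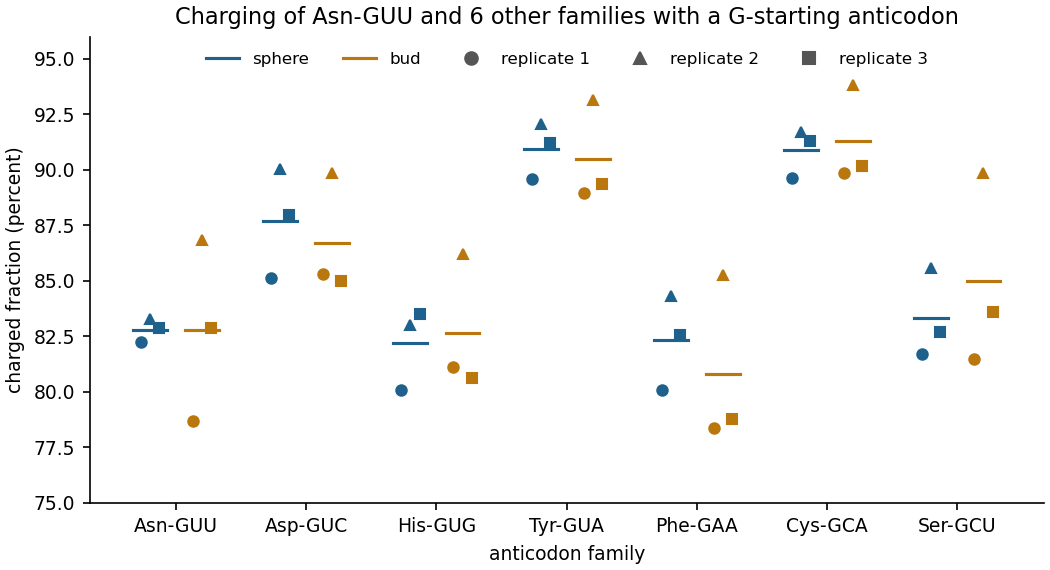
Charged fraction (percent, axis from 75 to 96) of Asn-GUU and 6 other families with an opening G in the anticodon. Points are single libraries with a symbol for each replicate number, and bars are means of 3 libraries at sphere and at bud. Asn-GUU averaged 82.8% at both stages, and its bud libraries ran from 78.7% to 86.8%.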

How the data were processed

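tRNA abundance was measured in 12 libraries and charging in 6. The authors trimmed reads with cutadapt 3.5 and ran mim-tRNAseq against GRCz11 tRNA references. Per the labels and the paper's methods, the values deposited for abundance are raw read counts, not normalized, for each transcript or unresolved group. Reads can be misassigned between near-identical transcripts, so a single entry is less certain than its family. The deposited charging table holds the authors' charged fraction per family, printed here as percent. All per-sample columns were mapped to labelled samples (0 left unmapped).

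Counts were summed over 47 anticodon families. DESeq2 1.42.0 (R 4.3.3), which the study's methods name, gave Wald tests of changes from a model of stage alone over all 12 libraries. A call is a Benjamini-Hochberg adjusted p of at most 0.05. Resolved transcripts, families and all nuclear entries were fitted separately. In the main fits p values were adjusted within each after the DESeq2 filter on mean count, so some entries had no adjusted p. edgeR 4.0.16 (quasi-likelihood), TMM factors, total-count scaling, other thresholds and left-out libraries were alternatives. The scripts were tested on simulated data. Permutation tests used SciPy 1.17.1, with 100000 resamples where not exact. Members and gene lists were chosen with earlier results of these data known. Named entries were the 10 most abundant resolved transcripts, those called in any contrast, the groups, those beside the detection threshold, that with the most copies, and tRNA-Asn-GUU-209. Replicate libraries came from separate collections by the study's methods, and none was a repeat deposit (chi-square per degree of freedom over Asn entries 31.2 to 204). Wilson intervals and the limit of 3 counts cover counting error only. Coordinates and tRNA sequences were not used here.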

Additional observations from a re-analysis of the deposited data

How the results depend on the processing

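With 2 libraries a stage, single libraries decided several calls. Leaving out each library in turn gave family log2 changes of -0.49 to -0.14 at 256-cell, -0.47 to -0.13 at 1000-cell, -0.35 to -0.018 at sphere, -0.27 to 0.074 at shield, 0.10 to 0.44 at bud and 0.42 to 0.48 for bud against sphere. It gave 0 to 1 called Asn transcripts at each stage before shield, 0 to 5 at shield, 1 to 7 at bud and 0 to 3 for bud against sphere, and 19 to 21 detected transcripts. For bud against sphere 0 were called without the first sphere or the first bud library. At shield 1 was called without either shield library. For charging the difference ranged from -2.02 to 2.06 percentage points.

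Of the other alternatives, the sum of resolved transcripts alone fell by 1.00 for bud against egg and changed by -0.64 for bud against sphere. The unplanned sum without tRNA-Asn-GUU-82/64/166, the entry that gained most, gave -0.64 and -0.37. Values below those of the whole family were given in advance there. Bud against sphere was 0.41 with edgeR and 0.36 with total scaling, neither called. Called Asn transcripts at shield were 1 with edgeR and 0 when only the compared libraries were fitted. At bud a detection threshold of 0.05% left 2. For bud against sphere the count was 0 with edgeR, 1 when TMM factors were used, 7 under total scaling, 4 when only detected transcripts were fitted and 1 at the 0.05% threshold. The fit of detected transcripts called 3 at 256-cell and 2 at 1000-cell. Thresholds of 0.001% and 0.05% gave 41 and 7 detected transcripts. The relation of share with hpf reversed to -0.170 without bud and -0.495 from egg to sphere. The charging difference on the logit scale was 0.018. As a percent of all tRNA counts, mitochondrial ones included, the family share was 1.97 in egg, 1.60 at 1000-cell, 1.76 at sphere, 1.95 at shield and 2.49 at bud. Among resolved counts alone it was 0.885, 0.653, 0.715, 0.705, 0.633 and 0.435 from egg to bud. tRNA-Asn-GUU-99 reversed to -0.26 and tRNA-Asn-GUU-261 to -0.33 for bud against sphere with total scaling, both uncalled. Where no cause is named, the cause was not tested.

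Left-out libraries also turned the sign of single entries. For bud against sphere the ranges were -0.39 to 0.25 for tRNA-Asn-GUU-65, -0.018 to 0.31 for tRNA-Asn-GUU-99, -1.34 to 0.17 for tRNA-Asn-GUU-54, -0.13 to 0.046 for tRNA-Asn-GUU-200/148/235, -0.31 to 2.07 for tRNA-Asn-GUU-252/272 and -1.21 to 1.34 for tRNA-Asn-GUU-261. At shield they were -0.81 to 0.037 for tRNA-Asn-GUU-65, -1.11 to 0.10 for tRNA-Asn-GUU-164 and -3.66 to 0.39 for tRNA-Asn-GUU-54, and at bud against egg -3.61 to 0.22 for tRNA-Asn-GUU-54.

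Replicates of a stage were taken on different days, but neither the labels nor the methods say that a replicate number marks 1 day across stages, so the libraries were not treated as paired. Deviations of same-numbered libraries correlated above 0.1 for 13 of 15 pairs of stages but not for 256-cell with 1000-cell or with shield, and ranged from -0.166 to 0.858. With a replicate block the calls were 2 at 256-cell, 1 at 1000-cell, 5 at shield, 7 at bud and 3 for bud against sphere, and the family change for bud against sphere was 0.45 (DESeq2 adjusted p 0.0264). With the block tRNA-Asn-GUU-82/64/166 passed at shield (0.68, adjusted p 0.00732). In charging the blocked difference was -0.0022.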

Other observations

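tRNA-Asn-GUU-103, a single-copy transcript below the detection threshold, was noticed after its values had been seen. It had 0 and 1 counts in egg, 5 and 3 at 256-cell, 0 and 0 at 1000-cell, 15 and 13 at sphere, 104 and 164 at shield and 47 and 147 at bud. The shield and bud libraries held 0.00205%, 0.00331%, 0.00150% and 0.00345% of nuclear counts. All 4 gastrula libraries were above the 8 earlier ones, as they were for tRNA-Asn-GUU-82/64/166, at a far lower level. Its reads can be shared with near-identical transcripts, and this was not tested.

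The mitochondrial Asn tRNA, encoded in the mitochondrial genome and outside the 116 entries, held 1.75% to 2.38% of mitochondrial tRNA counts. The ratio of its counts to all nuclear Asn counts was 0.196 and 0.179 in egg, 0.208 and 0.228 at sphere, 0.124 and 0.139 at shield and 0.0734 and 0.0713 at bud. All 4 gastrula ratios lay below the 8 earlier ones. Within mitochondrial tRNA counts its mean share was 2.14% in egg and 2.16% at bud. The paper reports a falling proportion of reads for mitochondrial tRNAs as a whole, so a fall was not particular to Asn.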
